A study of Homo sapiens with 6 samples.

Results

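The 10 genes described here encode the Ragulator complex (LAMTOR1, LAMTOR2, LAMTOR3, LAMTOR4 and LAMTOR5), 3 Rag GTPases (RRAGA, RRAGC and RRAGD) and 2 regulators of the Rag GTPases (FLCN and SLC38A9). They were taken by symbol from a table of 58825 genes, and all 10 were among the 19393 genes that passed the filter on low counts. The set was chosen from an earlier analysis of the same comparison, in which LAMTOR3 was among the lower genes, so the differences of its members between the groups are given as a description and without p-values. RNA was sequenced from MHCC97H, a line derived from a human hepatocellular carcinoma, in 3 shPTBP1 libraries and 3 shControl libraries. The shPTBP1 libraries are labelled as a PTBP1 knockdown, by a short hairpin RNA against this RNA-binding splicing regulator, and the shControl libraries as wild type with a control hairpin. The labels do not say which hairpin was used, whether a group is 1 infected pool, or whether the libraries came from separate cultures, so that spread between libraries may be technical. The comparison asked how the transcriptome of these cells differed after PTBP1 depletion.

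Ragulator sits on the surface of the lysosome, where the lipid-anchored LAMTOR1 wraps around the LAMTOR2-LAMTOR3 and LAMTOR4-LAMTOR5 dimers. It holds a Rag dimer, made of RagA or RagB with RagC or RagD, and when amino acids are plentiful this dimer brings the kinase complex mTORC1 to the lysosome, where RHEB turns it on. LAMTOR2 and LAMTOR3 are also known as p14 and MP1, an endosomal scaffold that binds the kinases MEK1 and ERK1 of the MAPK cascade.

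In the libraries labelled shPTBP1, the mRNA of LAMTOR3 stood at 40.7% of its level in shControl, and it was the single Ragulator subunit with a difference of this size. The log2 fold changes of the other 9 genes were all smaller than 0.3 in absolute value. LAMTOR3, the scaffold partner of MEK1, lies on chromosome 4 of hg38 from 99878336 to 99894427 on the minus strand (ENSG00000109270). Its level in FPKM (fragments per kilobase of exon per 1000000 fragments) was 3.16, 2.97 and 2.86 in shPTBP1 1, 2 and 3, against 8.48, 8.09 and 5.93 in shControl 1, 2 and 3. The groups did not overlap, and the highest shPTBP1 library lay well under the lowest shControl library, shControl 3. The means were 3.00 ± 0.15 FPKM in shPTBP1 and 7.50 ± 1.37 FPKM in shControl (SD, n = 3 each). The deposited counts of LAMTOR3 were 1252, 1144 and 1044 in shPTBP1 and 2890, 3433 and 2022 in shControl. In CPM (counts per 1000000, scaled by the TMM method) the difference between the means was -21.9, larger than the SD of either group, 0.69 in shPTBP1 and 7.26 in shControl. The fitted log2 fold change (shPTBP1 minus shControl) was -1.30 with a standard error of 0.18. Among the 19393 genes tested, 236 had a lower log2 fold change, and among the 11986 with a mean of at least 1 FPKM, 30 did. In bulk RNA, fewer cells that express a gene and less RNA per cell cannot be told apart.

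A region upstream of LAMTOR3 is printed because LAMTOR3 is the only member whose groups did not overlap in FPKM. It covers the 250 bases before the outermost RefSeq start of LAMTOR3 (build GRCh38.p14, chr4:99894547-99894796, minus strand, read 5′ to 3′), and it overlaps no exon of GENCODE release 29.
LAMTOR3: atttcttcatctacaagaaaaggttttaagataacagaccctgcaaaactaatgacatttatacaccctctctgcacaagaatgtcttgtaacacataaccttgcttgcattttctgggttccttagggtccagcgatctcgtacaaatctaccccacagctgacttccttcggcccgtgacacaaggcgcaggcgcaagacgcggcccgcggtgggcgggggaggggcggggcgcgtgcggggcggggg
Its GC content was 54.4%, against a median of 58.0% over 35116 such windows of RefSeq genes. No part of it is in capitals, since the motif searched, TCACGTG on either strand, was not found in it. Another RefSeq start of LAMTOR3, at 99894427, is the deposited start of the gene. Its window (chr4:99894428-99894677, not printed) also lacked the motif. That window overlaps 2 exons of GENCODE release 29, and its GC content was 71.6%, above the median.

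The motif TCACGTG contains the E-box bound by TFEB and TFE3, transcription factors of lysosomal genes that mTORC1 holds in the cytoplasm through RagC and RagD. RefSeq windows were matched for 8 of the 10 genes, RRAGA and RRAGD being the others, with 12 windows among them, and 3 of the 12 windows, each of another gene, held the motif, against 3.31% of all windows. The matches are shown with the motif in capitals and up to 10 bases on each side, on build GRCh38.p14, for RRAGC (chr1:38859868-38859894, minus strand), LAMTOR4 (chr7:100148894-100148917, plus strand) and LAMTOR1 (chr11:72103447-72103473, minus strand).
RRAGC: gtgattccggCACGTGAcggggcacca
LAMTOR4: cggctgcaagCACGTGAccggggc
LAMTOR1: tttccccgcaTCACGTGcttgcgtgta
The motif lay 106 bases before the RefSeq start of the window in RRAGC, 160 in LAMTOR1 and 8 in LAMTOR4. These distances hold for those starts only. The deposited start of LAMTOR4, 100148907, falls inside its motif. The outermost GENCODE starts of RRAGC and LAMTOR1, 38859823 and 72103387, lie nearer to the motif than the RefSeq starts. The windows of RRAGC, LAMTOR1 and LAMTOR4 overlap 2, 1 and 3 GENCODE exons, in that order. A match describes these letters and does not show that a factor binds there. The log2 fold changes of the 3 genes were -0.03, 0.02 and -0.11 for RRAGC, LAMTOR4 and LAMTOR1, in that order.

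Total counts per library were 68704509 to 85317970, and the counts of the 10 genes in single libraries ran from 594 to 8838. PTBP1 itself had 17.3, 16.9 and 18.0 FPKM in shPTBP1, against 21.2, 16.4 and 27.4 FPKM in shControl, and its log2 fold change was -0.29 ± 0.18 (SE, edgeR adjusted p = 0.953), so its RNA does not bear out the labels, shControl 2 being below every shPTBP1 library, and each direction given here is that of the libraries as labelled. Of 12 hepatocyte and hepatoma markers, 8 were under 0.1 FPKM in every library, and ALB, AFP, APOB, TTR, FGB and TF were listed at 0 throughout, whereas the keratins KRT8 and KRT18 were high, so that these markers do not bear out the labelled liver origin. The 12 markers summed to 143 to 163 FPKM in shPTBP1 and 130 to 148 FPKM in shControl. Red-cell markers (9 genes) summed to 656, 594 and 0.88 FPKM in shPTBP1 1, 2 and 3 and to 990, 629 and 1.09 FPKM in shControl 1, 2 and 3, and 7 leukocyte markers to 15.9, 14.1 and 0.12 FPKM and to 24.6, 15.1 and 0.15 FPKM. Hemoglobin and leukocyte transcripts were thus present in the libraries numbered 1 and 2 of both groups and at or near 0 in those numbered 3. The 7 fibroblast and endothelial markers summed to 41.1 to 55.2 FPKM in shPTBP1 and 30.0 to 38.5 FPKM in shControl without overlap, with COL1A2 listed at 0 in every library. COL3A1 alone made this separation, since the other 6 markers summed to 12.1, 11.7 and 8.68 FPKM in shPTBP1 and 9.97, 9.18 and 13.0 FPKM in shControl. The part of these transcripts in the results was not tested.

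LAMTOR3 was lower on both sides of the split by library number. In the libraries numbered 1 and 2, which hold the blood transcripts, its log2 fold change was -1.43 ± 0.12 (SE). Between the libraries numbered 3, which do not, the shPTBP1 level was 50.7% of the shControl level in CPM, a log2 ratio of -0.98 from 1 library per group. Of the shControl libraries, shControl 3 lay nearest to shPTBP1 for LAMTOR3, and without it the log2 fold change was -1.45.

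**Figure D1:**
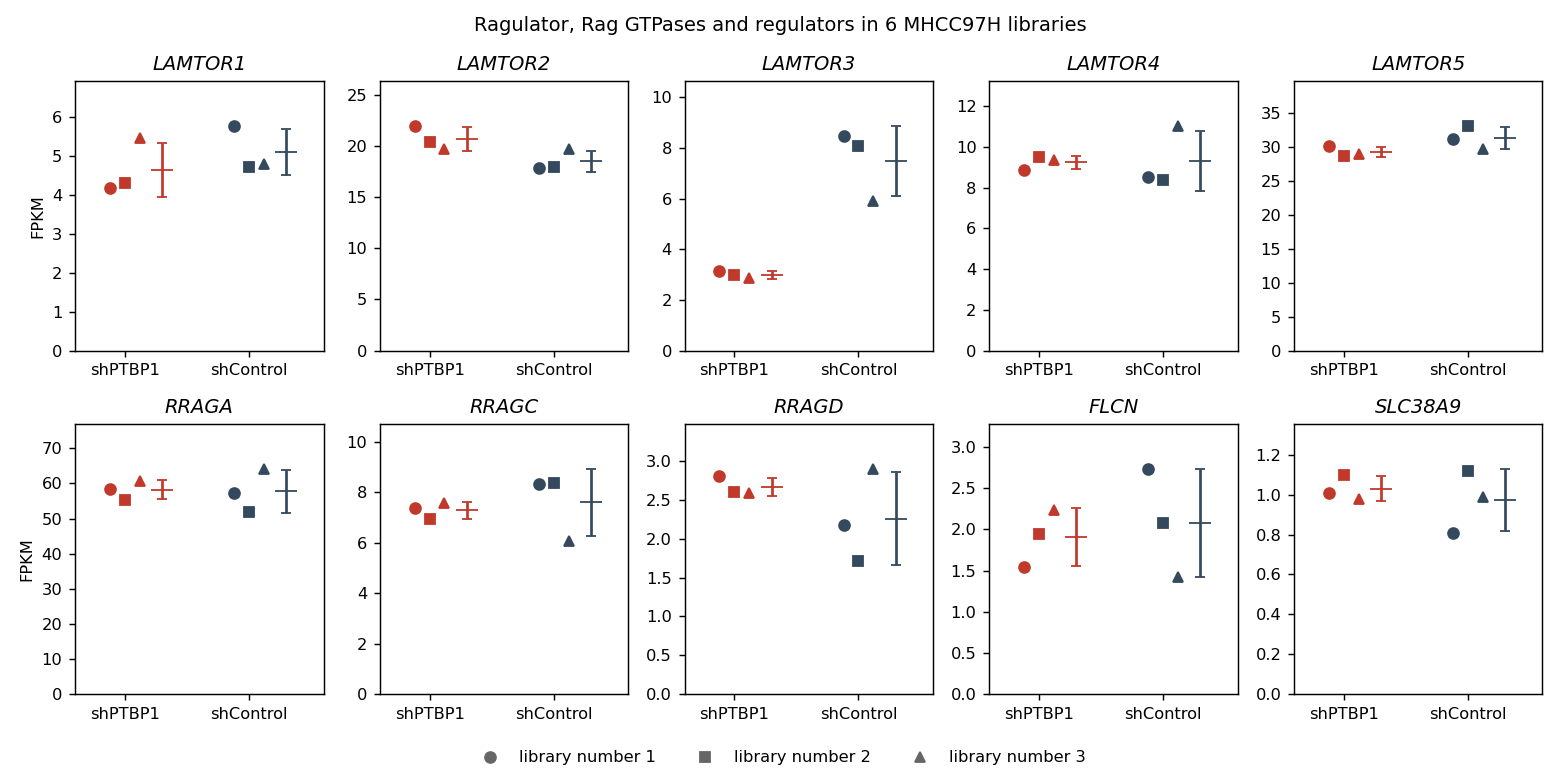
FPKM of the 10 genes in each library, shPTBP1 left of shControl, with the library number as the symbol and the mean ± SD (n = 3 each) beside the points; each panel starts at 0 and has its own scale. LAMTOR3 is the gene whose shPTBP1 libraries, at 2.86 to 3.16 FPKM, stand apart from shControl, at 5.93 to 8.48 FPKM, and the other panels overlap.

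LAMTOR2, the roadblock-domain partner of LAMTOR3, lies on chromosome 1 from 156054752 to 156058510 on the plus strand (ENSG00000116586). It had 21.9, 20.4 and 19.7 FPKM in shPTBP1, against 17.9, 18.0 and 19.7 FPKM in shControl. These ranges met at 19.66 FPKM in shPTBP1 3 and 19.69 FPKM in shControl 3, but after TMM scaling the CPM of the shPTBP1 libraries were all higher. The log2 fold change of LAMTOR2 was 0.19 ± 0.11 (SE), so the partners of this dimer lay on opposite sides of 0. The ratio of LAMTOR3 to LAMTOR2 FPKM was 0.144, 0.146 and 0.145 in shPTBP1 and 0.475, 0.451 and 0.301 in shControl.

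LAMTOR1, the membrane anchor that holds the complex together, lies on chromosome 11 from 72085895 to 72103297 on the minus strand (ENSG00000149357). It had 4.18, 4.30 and 5.44 FPKM in shPTBP1 and 5.76, 4.72 and 4.79 FPKM in shControl, with a log2 fold change of -0.11 ± 0.18 (SE). The groups overlapped, with shPTBP1 3 above shControl 2 and 3. In FPKM, LAMTOR3 exceeded LAMTOR1 in every shControl library, with ratios of 1.47, 1.71 and 1.24. It was below LAMTOR1 in every shPTBP1 library, with ratios of 0.756, 0.691 and 0.526. This order rests on the gene lengths behind FPKM. In CPM, not scaled by length, LAMTOR3 had 15.8, 14.7 and 14.5 in shPTBP1, against 13.5, 13.8 and 17.8 for LAMTOR1. On that scale LAMTOR3 was above LAMTOR1 in shPTBP1 1 and 2.

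LAMTOR4 and LAMTOR5 form the other dimer of Ragulator. LAMTOR4, on chromosome 7 from 100148907 to 100155944 on the plus strand (ENSG00000188186), had 8.85, 9.51 and 9.33 FPKM in shPTBP1 and 8.53, 8.38 and 11.02 FPKM in shControl. The shPTBP1 libraries lay inside the range of shControl, whose highest value was shControl 3, and the log2 fold change was 0.02 ± 0.15 (SE). LAMTOR5, on chromosome 1 from 110401249 to 110407708 on the minus strand (ENSG00000134248), had 30.1, 28.7 and 29.04 FPKM in shPTBP1 and 31.2, 33.1 and 29.7 FPKM in shControl. The groups overlapped between shPTBP1 1 and shControl 3, and the log2 fold change was -0.07 ± 0.10 (SE).

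The summed FPKM of the 5 Ragulator genes was 66.8 ± 1.27 in shPTBP1 and 71.7 ± 0.54 in shControl (SD, n = 3 each). Without LAMTOR3 the sums were 63.8 ± 1.14 FPKM in shPTBP1 and 64.2 ± 0.97 FPKM in shControl, closer than the spread between libraries. LAMTOR3 made up 4.63%, 4.51% and 4.31% of the sum in shPTBP1, against 11.8%, 11.2% and 8.33% in shControl. LAMTOR2 took 32.1%, 31.0% and 29.6% in shPTBP1, against 24.9%, 24.8% and 27.7% in shControl, also without overlap. LAMTOR5 took the most in each library, 43.8% ± 0.30 in shPTBP1 and 43.7% ± 2.03 in shControl (SD, n = 3 each). As parts of the same sum the shares are tied, so a lower LAMTOR3 share raises the others by construction. Without LAMTOR3 in the sum, LAMTOR2 took 32.4% ± 1.36 in shPTBP1 and 28.8% ± 1.21 in shControl (SD, n = 3 each). LAMTOR5 then took 45.9% ± 0.36 in shPTBP1 and 48.8% ± 3.03 in shControl. These are shares of mRNA on the FPKM scale and not of assembled complexes, whose subunits are present in equal numbers.

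**Figure D2:**
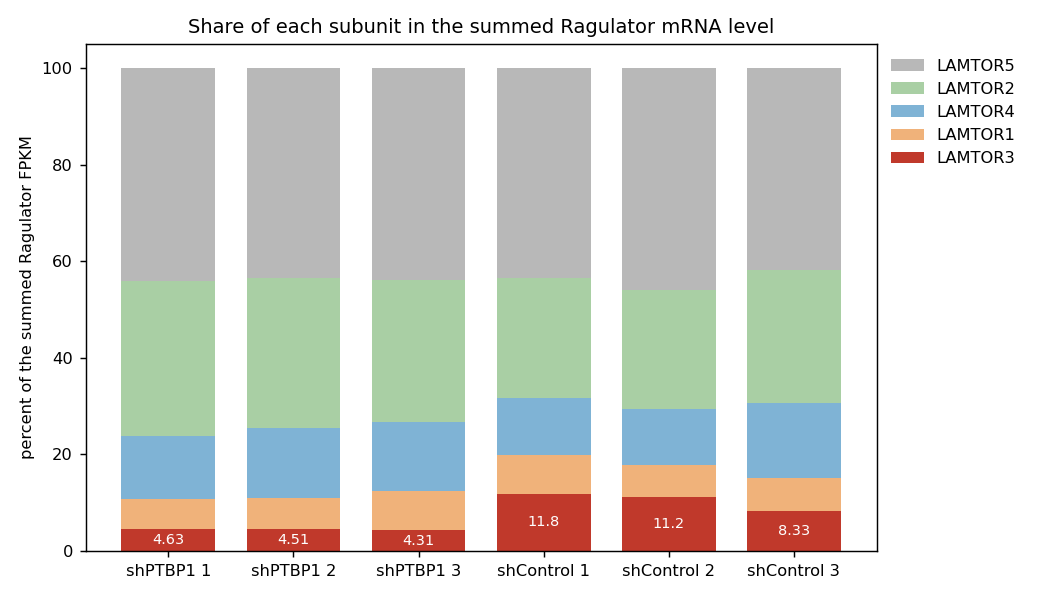
Percent of the summed FPKM of LAMTOR1 to LAMTOR5 taken by each subunit in each library, shPTBP1 at the left and shControl at the right, with the LAMTOR3 share printed in its bar. The LAMTOR3 share was 4.48% ± 0.16 in shPTBP1 and 10.4% ± 1.86 in shControl (SD, n = 3 each).

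The ranges of the groups overlapped for all 3 Rag GTPases. RRAGA encodes RagA, the partner whose GTP-bound form recruits mTORC1, and is an intronless gene with 1 transcript on chromosome 9 from 19049395 to 19050983 on the plus strand (ENSG00000155876). It had 58.5, 55.3 and 60.8 FPKM in shPTBP1 and 57.1, 51.9 and 64.1 FPKM in shControl, with a log2 fold change of 0.04 ± 0.11 (SE). The range of shControl enclosed that of shPTBP1. RRAGB, the close relative of RRAGA, made up 8.04% ± 0.18 of the summed FPKM of both genes in shPTBP1 and 7.56% ± 0.84 in shControl (SD, n = 3 each), and its log2 fold change was 0.14 ± 0.13 (SE, edgeR adjusted p = 0.971).

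RRAGC and RRAGD encode RagC and RagD, the partners that take part in handing TFEB and TFE3 to mTORC1. RRAGC, on chromosome 1 from 38838198 to 38859772 on the minus strand (ENSG00000116954), had 7.36, 6.93 and 7.59 FPKM in shPTBP1 and 8.35, 8.37 and 6.07 FPKM in shControl. Its log2 fold change was -0.03 ± 0.16 (SE), with shControl 1 and 2 above and shControl 3 below all shPTBP1 libraries. RRAGD, on chromosome 6 from 89364636 to 89412270 on the minus strand (ENSG00000025039), had 2.81, 2.61 and 2.59 FPKM in shPTBP1 and 2.18, 1.71 and 2.90 FPKM in shControl. Its log2 fold change was 0.27 ± 0.21 (SE), with shControl 1 and 2 below and shControl 3 above all shPTBP1 libraries. RRAGD took 27.6%, 27.4% and 25.4% of the summed FPKM of RRAGC and RRAGD in shPTBP1, against 20.7%, 17.0% and 32.3% in shControl. In the libraries numbered 1 and 2 the log2 fold changes were -0.22 ± 0.10 for RRAGC and 0.49 ± 0.18 for RRAGD (SE), and between the libraries numbered 3 the log2 ratios were 0.39 for RRAGC and -0.10 for RRAGD, so the directions differed.

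FLCN encodes folliculin, which with its FNIP partners stimulates GTP hydrolysis by RagC and RagD, and lies on chromosome 17 from 17212212 to 17237188 on the minus strand (ENSG00000154803). It had 1.54, 1.95 and 2.24 FPKM in shPTBP1 and 2.73, 2.08 and 1.42 FPKM in shControl, with a log2 fold change of -0.10 ± 0.27 (SE). Of the 10 genes FLCN varied most within shControl, where the highest FPKM was 1.92 times the lowest. In the libraries numbered 1 and 2 its log2 fold change was -0.45 ± 0.21 (SE), and between those numbered 3 the log2 ratio was 0.73. SLC38A9 encodes the lysosomal amino acid transporter that reports arginine to the Rag GTPases and lies on chromosome 5 from 55625845 to 55712298 on the minus strand (ENSG00000177058). It had 1.01, 1.10 and 0.98 FPKM in shPTBP1 and 0.81, 1.12 and 0.99 FPKM in shControl, and the groups overlapped, with a log2 fold change of 0.11 ± 0.17 (SE).

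Over the 10 genes, 5 log2 fold changes were negative and 5 positive, with a median of -0.01, equal at this rounding to the median of all genes tested. A gene was counted as called at an adjusted p under 0.05 in edgeR's quasi-likelihood test, which called 0.0309% of all genes and 0 of the 10, and at an unadjusted p under 0.05 the test held 3.58% of all genes as higher and 2.11% as lower, LAMTOR3 being the only member among them. DESeq2 called 0.715% of the genes it gave an adjusted p, edgeR on the libraries numbered 1 and 2 alone called 0.319%, and edgeR without shControl 3 called 0.674%, in each case with LAMTOR3 as the only member. Groups did not overlap in CPM, with shPTBP1 lower, in 5.46% of all genes and in LAMTOR3, and with shPTBP1 higher in 6.49% of all genes and in LAMTOR2. These counts use the comparison on which the genes were chosen, and nothing is read from them.

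The spread of log2 CPM was larger in shControl than in shPTBP1 for 8 of the 10 genes, LAMTOR1 and LAMTOR2 being the others. The direction between the libraries numbered 3 was opposite to that in the libraries numbered 1 and 2 for 7 genes, and it was the same for LAMTOR2, LAMTOR3 and SLC38A9. No share over all genes is given beside these counts, so they are not read as particular to the 10 genes.

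**Figure D3:**
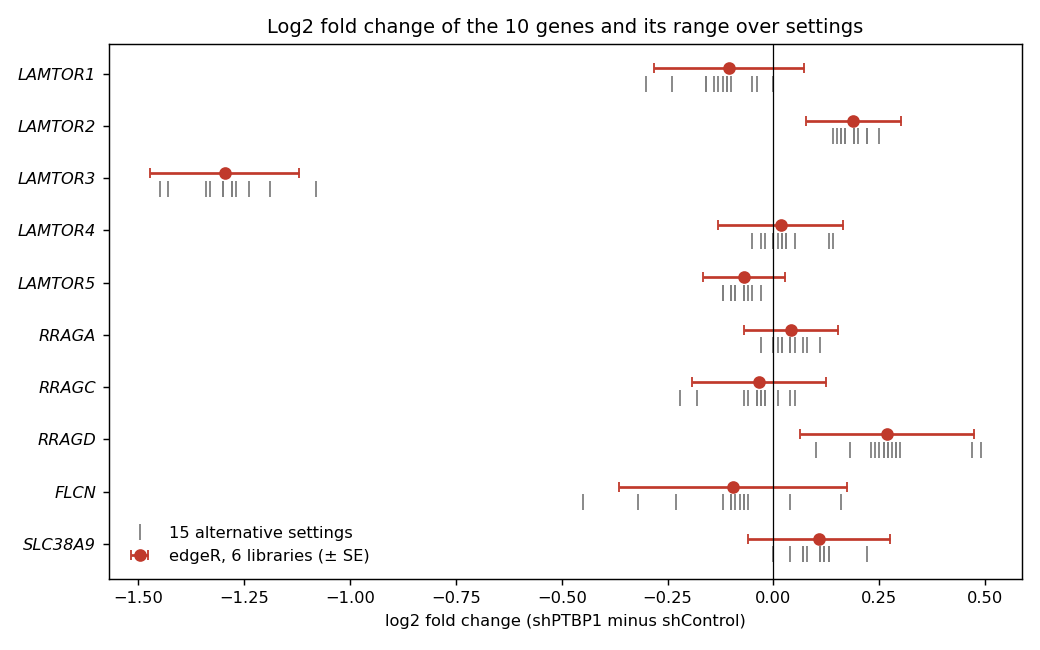
Fold change of the 10 genes on the log2 scale (positive where shPTBP1 was higher, from edgeR) with its standard error as red points and bars, and the values under 15 alternative settings as grey ticks below them. LAMTOR3 stayed between -1.45 and -1.08, while the ticks of LAMTOR4, RRAGA, RRAGC and FLCN fell on both sides of 0.

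By level, averaged over the 6 libraries, the order was RRAGA (57.95 FPKM), LAMTOR5 (30.3), LAMTOR2 (19.6), LAMTOR4 (9.27), RRAGC (7.45), LAMTOR3 (5.25), LAMTOR1 (4.87), RRAGD (2.47), FLCN (1.99) and SLC38A9 (1.00). The ranges over libraries of RRAGC and LAMTOR3, of LAMTOR3 and LAMTOR1, and of RRAGD and FLCN overlapped, so these neighbours in the order were not separated. RRAGA stood above 96.8% of the genes tested by mean FPKM, LAMTOR3 above 67.4% and SLC38A9 above 38.2%. LAMTOR3 ranked 7th of the 10 in each shPTBP1 library and 5th, 6th and 6th in shControl 1, 2 and 3. The deposited FPKM corresponded to 1 fixed length per gene in all libraries, in proportion to the total length of its annotated exons, so they carry no information on which transcript was made and place genes with many transcripts lower.

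LAMTOR3 has 3 transcripts in GENCODE release 29, of 4226, 1220 and 961 bases. The longer coding transcripts have coding lengths of 372 and 351 bases, and the third is annotated as noncoding. The number of annotated transcripts among the other members ran up to 26, in SLC38A9. No gene overlaps LAMTOR3 in that annotation, and the 5 pseudogenes of members in the table, LAMTOR3P1 and LAMTOR3P2 among them, had 0 counts in every library. LAMTOR1, LAMTOR4, LAMTOR5 and FLCN overlap genes on the opposite strand, namely LRTOMT, C7orf43, LAMTOR5-AS1 and MPRIP, with means of 0.457, 1.96, 0.15 and 6.43 FPKM. The library protocol marks strand, but it is not stated whether the counting used it, so reads of these overlaps cannot be assigned with certainty. On the same strand, AC055811, with entries at means of 0.015 and 0.005 FPKM, overlaps FLCN. AL139260, listed at 0 FPKM in every library, overlaps RRAGC in the same way. Strand cannot separate reads of these genes from those of the members.

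In the annotation deposited with the table, all 10 genes carried the KEGG mTOR signaling pathway, a term of 0.701% of the genes tested. The GO term lysosomal membrane was attached to 7 of the 10 (1.42% of genes tested) and the GO term MAPK cascade to LAMTOR1, LAMTOR2 and LAMTOR3 (2.08%). LAMTOR3 alone carried the KEGG MAPK signaling pathway (1.26%). The genes lie on 8 chromosomes.

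Patterns over the 6 libraries were compared by the root mean square difference of log2 CPM centred on each gene's mean, over 11986 genes with a mean of at least 1 FPKM. Those most like LAMTOR3 were EPB41L3 (0.217), which encodes a membrane skeleton protein, GOPC (0.224), which encodes a Golgi PDZ-domain protein, and NKTR (0.231), which encodes a cyclophilin-related protein. GOPC had 5.52, 5.89 and 6.20 FPKM in shPTBP1 and 16.4, 19.2 and 8.62 FPKM in shControl, and its shControl 3 also lay nearest to shPTBP1. Genes close to RRAGD by this measure included FGFRL1 (0.053), which encodes a receptor-like protein of the fibroblast growth factor receptor family, and AC009506 (0.068). FGFRL1 had 10.1, 8.82 and 9.0 FPKM in shPTBP1 and 7.91, 6.42 and 10.9 FPKM in shControl, with shControl 3 the highest of all, as for RRAGD. GOPC and FGFRL1 were picked for likeness over the same 6 libraries, so the shared place of shControl 3 is no separate result.

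Around these genes, 94 others of lysosomal nutrient sensing were taken in 11 lists, and 92 were tested. No gene of the 92 was called by edgeR, 10 had an unadjusted p under 0.05, all of them higher in shPTBP1, and 0 were lower at that threshold, where 3.58% of all genes were higher and 2.11% lower. Log2 fold changes were positive for 44 and negative for 48, with a median of -0.01. Of the 10 genes, 7 belonged to the list of lysosomal genes known as targets of TFEB, 2 to the V-ATPase and 1 to BORC.

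The lysosomal genes were the list with the highest median. Log2 fold changes were positive for 17 of its 21 tested genes, and their median was 0.24, against -0.01 over all genes tested. In the libraries numbered 1 and 2 the positive log2 fold changes were 15 of 21, and between the libraries numbered 3 the FPKM ratio was above 1 for 14 of 21. No share of positive values over all genes is given beside these counts, and the list was chosen with earlier results of these data known. CTSL, the gene of the lysosomal protease cathepsin L, had 139, 133 and 140.0 FPKM in shPTBP1 and 96.96, 89.85 and 101 FPKM in shControl. The groups did not overlap, but the log2 fold change of 0.54 ± 0.09 (SE) did not pass the adjusted threshold in edgeR (adjusted p = 0.246). NPC2, which encodes a cholesterol-binding protein of the lysosome, had 106, 92.1 and 96.8 FPKM in shPTBP1 and 53.6, 49.4 and 73.8 FPKM in shControl. The groups again did not overlap, and shControl 3 lay nearest to shPTBP1. The log2 fold change of NPC2 was 0.77 ± 0.16 (SE, edgeR adjusted p = 0.364), and DESeq2 gave an adjusted p of 0.0286 for CTSL and 0.0173 for NPC2. Others at an unadjusted p under 0.05 were LAMP1, CTSD, NAGLU and GPNMB, named after their values were seen, with log2 fold changes of 0.57, 0.56, 0.44 and 0.52.

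MAP2K1, the gene of MEK1, which the LAMTOR2-LAMTOR3 scaffold binds, had 20.5, 21.5 and 18.4 FPKM in shPTBP1 and 24.1, 24.4 and 22.5 FPKM in shControl. The groups did not overlap, and the log2 fold change of -0.21 ± 0.10 (SE) did not pass the threshold (edgeR adjusted p = 0.924). RHEB, the GTPase that activates mTORC1 at the lysosome, had 35.5, 32.1 and 32.9 FPKM in shPTBP1 and 38.7, 37.0 and 35.2 FPKM in shControl, with a log2 fold change of -0.11 ± 0.10 (SE). RPTOR, whose product raptor is the mTORC1 subunit that meets the Rag dimer, had a log2 fold change of 0.12 ± 0.12, and FNIP2, a partner of folliculin, -0.24 ± 0.24 (SE). None of the 6 mTORC1 genes, 3 TSC genes, 7 GATOR1 and KICSTOR genes, 5 GATOR2 genes, 6 amino acid sensors, 8 mTORC1 substrates or 4 MEK and ERK genes had an unadjusted p under 0.05.

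Among the TSC genes, which turn RHEB off, TSC1 had -0.17 ± 0.19 and TSC2 -0.09 ± 0.13 as log2 fold change (SE). Of GATOR1 and KICSTOR, which restrain the Rag dimer when amino acids are scarce, C12orf66 had 0.22 ± 0.18 and NPRL3 -0.16 ± 0.17. All 5 genes of GATOR2, which opposes GATOR1, had negative log2 fold changes, with a median of -0.07, SEH1L at -0.23 ± 0.24 and WDR59 at -0.11 ± 0.12. Of the amino acid sensors, SESN1, a leucine-responsive sestrin gene, had 0.37 ± 0.22 and BMT2, the gene of the methionine sensor SAMTOR, 0.25 ± 0.28. Of the mTORC1 substrates, EIF4EBP1, a repressor of translation, had -0.20 ± 0.15 and RPS6KB2, an S6 kinase gene, -0.16 ± 0.13. None of these named genes passed the adjusted threshold.

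BORC binds Ragulator and positions lysosomes in the cell. BLOC1S1, a BORC subunit, had 24.7, 25.2 and 25.9 FPKM in shPTBP1 and 18.0, 17.8 and 22.6 FPKM in shControl, without overlap, and a log2 fold change of 0.41 ± 0.12 (SE, edgeR adjusted p = 0.696). BLOC1S2 had 7.03, 6.50 and 8.14 FPKM in shPTBP1 and 12.7, 10.9 and 7.12 FPKM in shControl, with a log2 fold change of -0.48 ± 0.23 (SE), and its groups overlapped through shControl 3. The V-ATPase acidifies the lysosome and binds Ragulator, and of its 21 tested genes 9 had positive and 12 negative log2 fold changes. ATP6V1D had 0.37 ± 0.12 (edgeR adjusted p = 0.764) and ATP6V0B 0.28 ± 0.11 (edgeR adjusted p = 0.866), as log2 fold change with its SE.

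**Figure D4:**
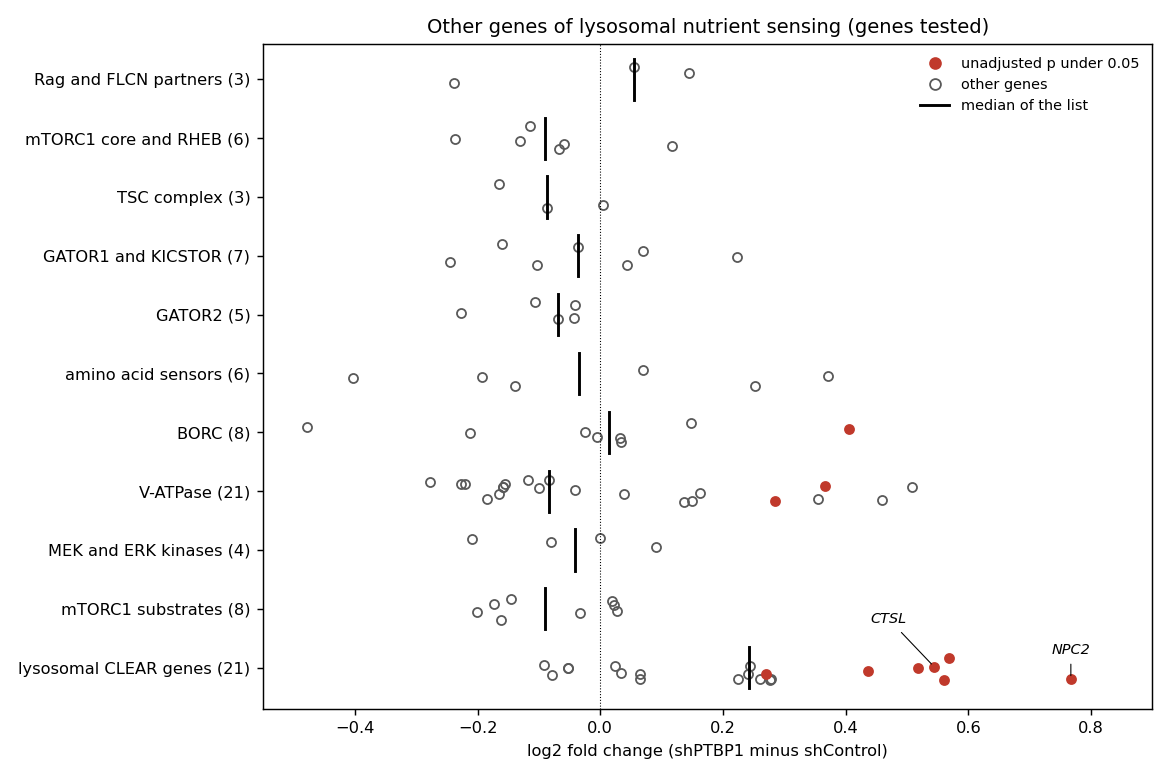
Fold change on the log2 scale (edgeR, positive where shPTBP1 was higher) of each tested gene in the 11 lists, 1 circle per gene, with the number of genes tested beside the list name, filled red circles for an unadjusted p under 0.05 and a black bar at the median of the list. The red circles are all to the right of 0, where 3.58% of all genes passed that threshold as higher and 2.11% as lower, and 7 of the 10 are in the list of lysosomal genes, whose median is 0.24.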

How the data were processed

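RNA of 6 MHCC97H libraries, 3 shPTBP1 and 3 shControl, was sequenced from poly(A) RNA. The submitters' processing notes name cutadapt 1.9, FastQC, HISAT2 2.2.1, StringTie and hg38, with no settings. The authors deposited 1 table with FPKM and whole-number estimated counts per gene and library, and both were used. Among counts of 1 to 40, between 32.5% and 34.4% in each library were multiples of 4, so the depth in fragments is not known and counts divided by 4 were an alternative. Precision rests on the spread between libraries. Every value column was mapped to a library (0 were left out). Values are per gene, so splicing was not analysed here.

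After rounding, the counts were filtered with filterByExpr, scaled by TMM and compared by glmQLFit and glmQLFTest, the quasi-likelihood test of edgeR 4.0.16 in R 4.3.3, with Benjamini-Hochberg adjustment over all genes kept, at 0.05. The SE is the absolute log2 fold change divided by the square root of F. The steps were tested on simulated data with known changes. Alternatives, 15 in all, were DESeq2 1.42.0, limma 3.58.1 on log2(FPKM + 1) and log2(FPKM + 0.1), no filter on low counts, library totals, counts divided by 4, a replicate block, number 3 as a covariate, the libraries numbered 1 and 2 only, and leaving out each library. Patterns were compared on log2(CPM + 0.5). Transcripts and overlaps come from GENCODE release 29, sequences from RefSeq (GRCh38.p14), and GO and KEGG terms from the deposited table. Python 3.11.15, pandas 2.3.3, numpy 2.4.6 and matplotlib 3.10.9 were used.

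The members, the lists and the tests were chosen with earlier results of these data known. Named were the members, PTBP1, the 3 genes most like LAMTOR3 and RRAGD, genes overlapping members, every called gene of the 11 pathway lists and up to 2 genes per list with the smallest p and at least 1 FPKM in the higher group mean. Some genes that the rule names are not reported here.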

Additional observations from a re-analysis of the deposited data

How the results depend on the processing

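Against 6 genes called over all genes, 0 were called with the replicate block, 3 with number 3 as a covariate, 63 in the libraries numbered 1 and 2 only, 165 by DESeq2 and 2 to 136 when 1 library was left out, the most without shControl 3. Among the members, where edgeR called 0, DESeq2 and the libraries numbered 1 and 2 each called 1, and leaving out 1 library gave 0 to 1, in each case LAMTOR3 and, among the left-out libraries, only without shControl 3. The calls of members use the comparison on which the genes were chosen, and nothing is read from them. Of the pathway genes, where edgeR called 0, DESeq2 called 2 (CTSL and NPC2), and leaving out 1 library gave 0 to 1 (NPC2, without shControl 3). The log2 fold change of LAMTOR3 ran from -1.45 to -1.08 over the 15 alternatives and -1.08 came from log2(FPKM + 1), whose pseudocount shrinks low levels by construction. The cause of the other differences was not tested. The block gave LAMTOR3 -1.28 and no member or pathway gene a call. Same-numbered libraries had correlations of deviations from the group means of -0.009, 0.158 and 0.083, not all over 0.1, and not every library correlated best with its own number, so the numbers were not taken as pairs. With 3 libraries per group and a log2 standard error of 0.10 to 0.27 for the members, small differences could not be detected.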
